A study of Mus musculus with 9 samples.

Results

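The genes followed here act where a curved membrane meets the actin cytoskeleton: *Fnbp1*, *Fnbp1l*, *Trip10*, *Fchsd2*, *Pacsin2*, *Was*, *Wasl*, *Cdc42* and *Arap3*. They were taken by gene name from the deposited RNA-Seq tables, where each of the 9 names matched 1 of 55401 genes. The set was put together with earlier results of these data known, namely the low *Fnbp1l* values of de novo expanded clones and the high *Arap3* values of the stably expanded clone. For these 2 genes the differences between groups are therefore a description and carry no p-value, and where they enter counts of calls nothing is read from them.

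The libraries were made from cells transformed by a gammaretroviral vector for both *Hoxa9* and *Meis1* (H9M cells). These cells are a mouse model of acute myeloid leukemia derived from lineage negative bone marrow of C57BL/6-Ly5.1 mice. In all groups each clone carried a lentiviral vector with 1 color code and a truncated EGFR surface marker. A mix of color-coded clones was transplanted with helper bone marrow into lethally irradiated C57Bl6/J recipients, whose age is not given in the sources used here. Splenocytes were sorted as CD45.1+, EGFRt bright, cKit+ and CD11b dim or negative, separately for each color code, and total RNA was sequenced. Pre-malignant libraries came from mouse #15, taken before overt leukemia, and represent 3 clones (43BC-D, 38BC-D, 33BC-D). At the leukemic endpoint these clones had expanded de novo, 38BC-D in mouse #13, 43BC-D in mouse #14 and 33BC-D in mouse #17, and were sorted again. Stable expansion is represented by a single clone, 34BC-D, sorted from each of the 3 endpoint mice. Pre-malignant state and mouse #15 cannot be told apart, nor can stable expansion and clone 34BC-D. The columns of the tables could be tied to a group but not to 1 sample, so the numbers 1 to 3 given to the libraries of each group name no clone or mouse.

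Between 10379739 and 15551196 reads per library lay on genes. De novo expanded library 3 stood apart: the Pearson correlation of its log2 CPM (the reads of a gene scaled to a common total of reads on genes) with those of the other 2 de novo expanded libraries was 0.944 to 0.952, against 0.974 to 0.98 with the stably expanded libraries, while the other 2 correlated at 0.983 with each other. In that library *Mpo*, the myeloperoxidase gene of granulocyte precursors, stood at 15800 CPM, against 1637 and 2658 CPM in the other 2. Pre-malignant libraries had 6143 to 7038 CPM and stably expanded libraries 7545 to 8915 CPM, so de novo expanded libraries 1 and 2 also lay outside these ranges. For the 9 genes and the named pathway genes, values without this library are given where it moved a call or the overlap of groups. The sorted markers *Ptprc* (CD45, 310 to 385 CPM) and *Kit* (142 to 287 CPM) were present in all libraries, and *Itgam* (CD11b) was low at 27.8 to 85.7 CPM. They were not uniform. In pre-malignant against stably expanded libraries *Itgam* had 40.7 to 49.9 against 58.0 to 85.7 CPM and *Kit* 245 to 287 against 200 to 231 CPM. *Cd34*, from the same list, had 87.8 to 136 against 54.9 to 82.6 CPM. In de novo expanded libraries 1 to 3 *Itgam* had 27.8, 34.7 and 58.2 CPM and *Cd34* 108.5, 164 and 46.6 CPM. Of markers of other cells, the 6 mature neutrophil genes summed to 157 to 193 CPM in pre-malignant, 118 to 502 CPM in de novo expanded and 487 to 3786 CPM in stably expanded libraries. The 6 B cell genes summed to 212 to 254, 74.0 to 203 and 84.7 to 102 CPM in the same order, the 6 erythroid genes to 16.4 to 32.2, 1.83 to 12.9 and 2.02 to 22.5 CPM, and the 5 endothelial genes to 232 to 249, 99.9 to 244 and 89.4 to 147 CPM. The 6 macrophage genes summed to 223 to 378 CPM, but single genes moved in different directions. *Csf1r* had 97.6 to 160 CPM in pre-malignant and 29.1 to 56.9 CPM in stably expanded libraries. De novo expanded libraries 1 to 3 had 53.7, 83.8 and 12.5 CPM. *Vcam1* had 12.4 to 100 and 77.4 to 141 CPM, and 1.17, 6.75 and 167 CPM in the de novo expanded libraries. *Adgre1* (52.2 to 99.0 CPM) and *Cd68* (63.8 to 116 CPM) varied less, and *C1qa* and *C1qb* had at most 0.986 CPM. The 6 T cell genes summed to at most 4.18 CPM and the 5 platelet genes to at most 3.11 CPM, with *Ppbp* at 0 reads throughout. Most of the mature neutrophil sum was *Ngp*, at 101.9 to 131 CPM in pre-malignant and 360 to 2605 CPM in stably expanded libraries. In stably expanded libraries *Camp* and *Ltf* also lay above all pre-malignant values. *S100a8* overlapped between these groups (25.4 to 53.5 against 36.1 to 277 CPM), and *Mmp8* and *Retnlg* had at most 1.442 CPM in any library. The part of these shifts in the results was not tested.

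F-BAR proteins form crescent-shaped dimers that bind phospholipids and bend membranes. Those of the TOCA family, FBP17 (*Fnbp1*), TOCA-1 (*Fnbp1l*) and CIP4 (*Trip10*), also bind the GTP-bound form of the small GTPase CDC42 and, through an SH3 domain, the proteins WASP and N-WASP, which then switch on the Arp2/3 complex to nucleate branched actin. In blood cells this module serves endocytosis, phagocytosis, podosomes and migration.

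The TOCA genes are paralogs, and only *Fnbp1l* among them was chosen for its values, so their promoters are set side by side. The windows run from 250 bases before to 50 bases after the RefSeq start (GRCm38.p6), 5′ to 3′ on the gene's strand: *Fnbp1l* at chr3:122619665-122619964 (minus strand), *Fnbp1* at chr2:31141959-31142258 (minus strand) and *Trip10* at chr17:57249201-57249500 (plus strand). Capitals mark GC boxes (GGGCGG on either strand) and, in *Fnbp1* only, 1 match to the MEIS motif TGACAG, seen as its reverse complement.
Fnbp1l: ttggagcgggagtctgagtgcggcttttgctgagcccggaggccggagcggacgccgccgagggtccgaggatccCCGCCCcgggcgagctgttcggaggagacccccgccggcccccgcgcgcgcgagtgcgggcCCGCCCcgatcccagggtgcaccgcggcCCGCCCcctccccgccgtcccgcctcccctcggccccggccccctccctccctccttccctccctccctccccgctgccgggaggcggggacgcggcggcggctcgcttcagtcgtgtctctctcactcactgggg
Fnbp1: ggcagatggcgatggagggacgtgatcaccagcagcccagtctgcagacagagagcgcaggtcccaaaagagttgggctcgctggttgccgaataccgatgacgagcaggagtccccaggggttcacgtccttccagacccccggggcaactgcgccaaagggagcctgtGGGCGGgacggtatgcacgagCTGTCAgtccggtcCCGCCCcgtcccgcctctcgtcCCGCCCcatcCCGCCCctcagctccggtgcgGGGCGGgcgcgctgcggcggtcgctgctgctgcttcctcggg
Trip10: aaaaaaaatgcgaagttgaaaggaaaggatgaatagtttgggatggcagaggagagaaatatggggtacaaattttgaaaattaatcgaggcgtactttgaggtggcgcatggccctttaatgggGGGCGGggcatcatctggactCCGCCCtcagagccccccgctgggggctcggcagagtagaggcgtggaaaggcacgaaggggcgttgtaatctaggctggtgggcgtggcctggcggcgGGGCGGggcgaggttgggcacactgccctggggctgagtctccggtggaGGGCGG
The *Fnbp1l* window was 78.3% G and C with 40 CpG dinucleotides, more than in 96.1% of the 32851 RefSeq promoters, whose median was 7. The *Fnbp1* window held 29 and the *Trip10* window 18. GC boxes numbered 3 in *Fnbp1l*, 5 in *Fnbp1* and 4 in *Trip10*, a motif found in 35.66% of all promoters. On both strands, none of the 3 windows matched the HOX-PBX motif TGATTNAT (3.22% of promoters), the E-box CACGTG (7.15%), the AP-1 motif TGANTCA (7.81%) or the ETS motif CCGGAA (14.9%), and the MEIS motif occurs in 19.18% of promoters. A match is a description of letters and not a binding site.

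*Fnbp1l*, which encodes TOCA-1 and lies on chromosome 3 from 122538719 to 122619715 (GRCm38, minus strand, 15 merged exon blocks), was low in every de novo expanded library. Its level was 124.5, 193 and 151 CPM in pre-malignant libraries 1 to 3, then 59.8, 49.5 and 63.55 CPM in the de novo expanded and 146, 143 and 164 CPM in the stably expanded libraries. All de novo expanded values thus lay below all values of both other groups, and library 3, which stood apart in the transcriptome, was among the low values. Group means were 156 ± 34.7, 57.6 ± 7.27 and 151 ± 11.6 CPM (SD, n = 3 each). On the scale of log2(normalized count + 1), the de novo expanded mean lay 1.41 below the pre-malignant one (2.65-fold, standard error 0.18) and the stably expanded mean lay 1.397 above the de novo expanded one (2.63-fold, standard error 0.14). Without de novo expanded library 3 these log2 differences were -1.49 and 1.48. Stably expanded and pre-malignant libraries overlapped, with a log2 difference of -0.03 (95% interval -0.34 to 0.29). In such bulk samples fewer cells that express a gene and less RNA per cell cannot be told apart.

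**Figure D1:**
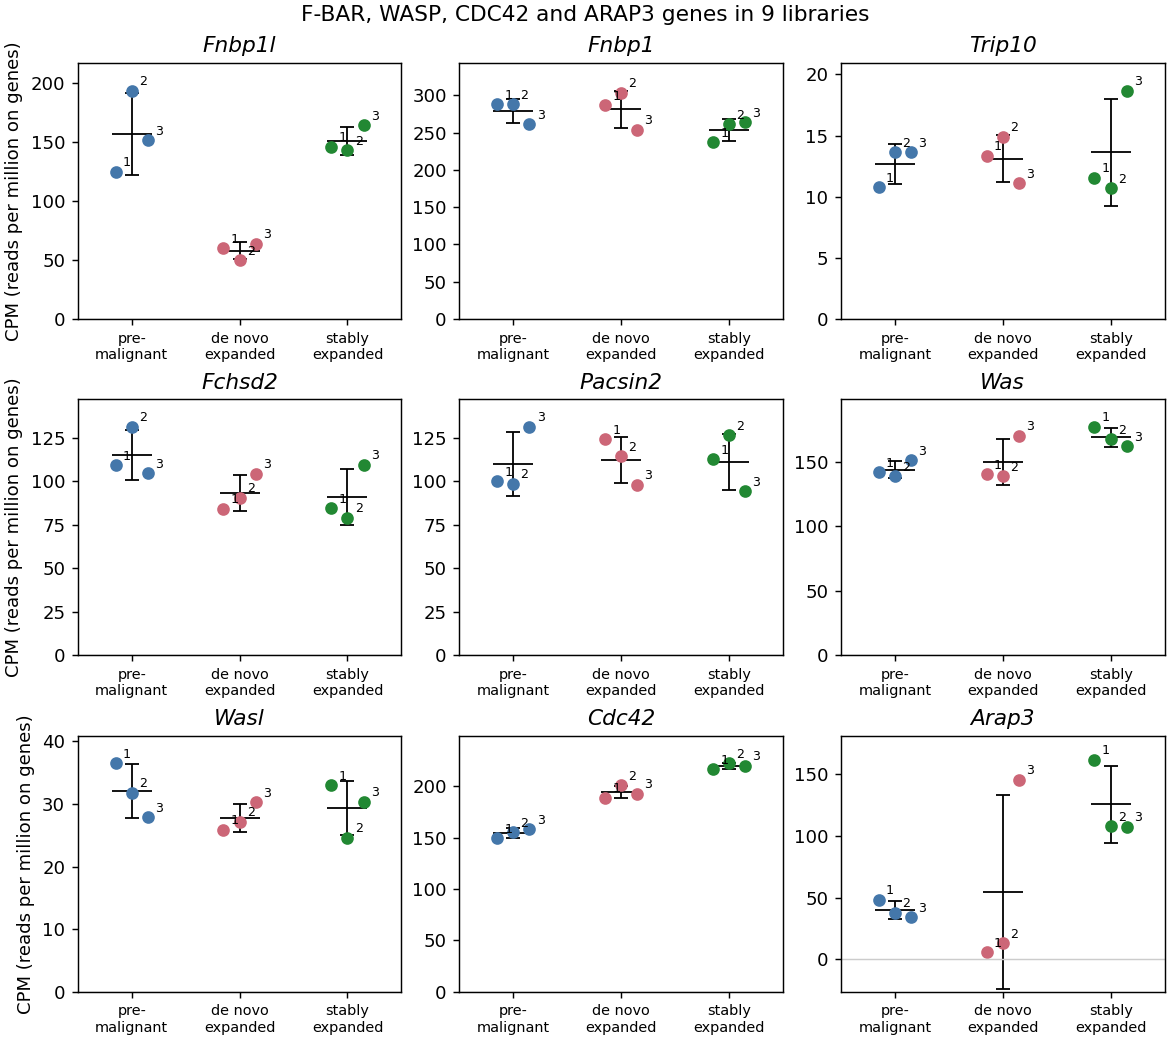
CPM of the 9 genes (y axes from 0, except for *Arap3*) in the 3 libraries of each group (points, numbered within the group), with the group mean and SD as bars. *Fnbp1l* sits between 49.5 and 63.55 CPM in de novo expanded and at 124.5 CPM or above in all other libraries, *Cdc42* steps up from group to group, and *Arap3* spreads from 5.76 to 146 CPM among de novo expanded libraries.

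Across all genes this order was uncommon. Of 13402 genes tested in all 3 comparisons, 107 (0.798%) had all de novo expanded libraries below all others, and 14 (0.104%) were in addition at least 2-fold below both other group means. *Fnbp1l* belonged to both sets, as its choice implies. The other 13 genes of the smaller set, such as the predicted gene *Gm48965* (1.00 to 6.03 CPM over the 9 libraries) and the MHC class II gene *H2-Eb1* (0.26 to 4.63 CPM), reached at most 6.025 CPM in any library, far below the levels of *Fnbp1l*.

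The paralogs of *Fnbp1l* did not share its order. *Fnbp1* (chromosome 2 from 31026206 to 31142008) had 288, 288 and 261 CPM in pre-malignant, 287, 303.5 and 254 CPM in de novo expanded and 237, 261.5 and 264 CPM in stably expanded libraries. All 3 groups overlapped, and its spread over the 9 libraries, a coefficient of variation of 7.76%, was smaller than that of all but 5.3% of genes. The log2 difference between de novo expanded and pre-malignant libraries was 0.03, with a 95% interval of -0.20 to 0.25 (limma, adjusted p = 0.938), and 0.09 without de novo expanded library 3. Without that library all stably expanded *Fnbp1* values lay below the de novo expanded ones, by 0.20 on the log2 scale (adjusted p = 0.308). *Trip10* (chromosome 17 from 57249455 to 57263665) was low, between 10.7 and 18.7 CPM, with its highest value in stably expanded library 3 and overlap between all groups. Against pre-malignant libraries its log2 difference was 0.06 in the de novo and 0.07 in the stably expanded group. Between these groups it was 0.03. The widest 95% interval ran from -0.59 to 0.64, so that differences within it were not excluded.

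The family's balance follows from these levels. Per kb of merged exons, which allows genes of different length to be compared, *Fnbp1* was the most abundant family member in every library, with 57.9% to 77.7% of the summed level. The *Fnbp1l* share was 23.9% to 32.1% in pre-malignant, 10.3% to 15.1% in de novo expanded and 28.1% to 30.1% in stably expanded libraries, and the *Trip10* share was 8.03% to 12.9%. The summed level of the 3 genes was 42.2 to 48.6 CPM per kb in pre-malignant, 34.0 to 38.95 in de novo expanded and 39.0 to 45.45 in stably expanded libraries, and no de novo expanded sum reached the lowest of the other groups. The shares and sums contain the *Fnbp1l* values that chose the gene and are no separate evidence.

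**Figure D2:**
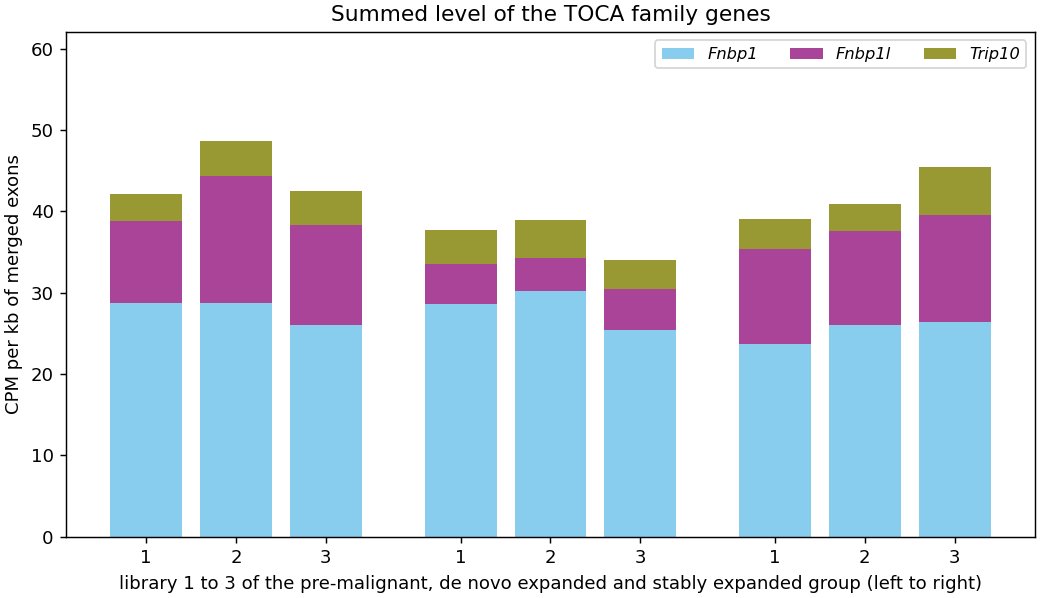
Summed level of the TOCA family genes in CPM per kb of merged exons (y axis, linear from 0) for libraries 1 to 3 of each group (x axis), with 1 color for each gene. The *Fnbp1l* block is thinnest in the 3 de novo expanded libraries, 4.001 to 5.135 CPM per kb against 10.1 to 15.6 CPM per kb in the other 6, above an *Fnbp1* block of 23.65 to 30.3 CPM per kb.

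The other F-BAR members varied little. *Fchsd2* (chromosome 7 from 101092863 to 101284405), whose product promotes actin assembly during clathrin-mediated endocytosis, had 109, 131 and 105 CPM in pre-malignant libraries, 84.3, 90.7 and 104.5 CPM in de novo expanded and 84.8, 79.1 and 110 CPM in stably expanded libraries. Both leukemic groups were lower on average but each had 1 library at the level of the lowest pre-malignant ones. The log2 differences against pre-malignant libraries were -0.29 (95% interval -0.60 to 0.02) for the de novo and -0.34 (-0.65 to -0.03) for the stably expanded group, with limma adjusted p = 0.461 and 0.162. The high de novo expanded value was that of library 3, and without it the group did not overlap with the pre-malignant one (log2 difference -0.38, adjusted p = 0.0966). *Fchsd2* shares 25 exon bases with *Atg16l2* on the opposite strand, which had 294 to 619 reads. *Pacsin2* (chromosome 15 from 83375607 to 83464606), coding for syndapin 2, an F-BAR protein that binds dynamin, ranged from 94.3 to 131 CPM with full overlap of the groups, and its log2 differences were 0.05, 0.02 and -0.01 in the 3 comparisons, all with intervals within -0.33 and 0.39.

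WASP, encoded by *Was* on the X chromosome from 8081453 to 8090498, is the blood cell member of its family and the protein lost in Wiskott-Aldrich syndrome. It had 142, 139 and 151 CPM in pre-malignant, 141, 139 and 170 CPM in de novo expanded and 177, 168 and 162 CPM in stably expanded libraries. The stably expanded libraries lay above all pre-malignant ones, by 0.23 on the log2 scale (95% interval 0.04 to 0.43), a difference that did not pass the test across all genes (limma, adjusted p = 0.129). The one high de novo expanded value was that of library 3, and without it the log2 difference between stably and de novo expanded libraries was 0.29 without overlap, in place of 0.18 with overlap (adjusted p = 0.145 and 0.891). *Wasl* (chromosome 6 from 24613805 to 24665009), coding for the broadly expressed N-WASP, stayed between 24.6 and 36.5 CPM, and its groups overlapped in all comparisons (log2 differences -0.19, -0.13 and 0.08). Without de novo expanded library 3 the de novo expanded values lay below all pre-malignant ones (-0.26, limma adjusted p = 0.370). Per kb, *Was* made up 91.0% to 94.6% of the sum of both genes in every library.

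*Cdc42* (chromosome 4 from 137319696 to 137357720), the GTPase to which the TOCA proteins and both WASP proteins bind, was higher in each step from pre-malignant over de novo to stably expanded libraries. It had 149, 156 and 158.5 CPM in pre-malignant, 189, 201 and 193 CPM in de novo expanded and 217, 222 and 220 CPM in stably expanded libraries. No library of one group reached the range of another, and the SD within groups was 2.76 to 6.23 CPM around means of 154.5, 194 and 219.7 CPM. *Cdc42* was 1 of 48 genes (0.358% of 13402) with this stepwise order upward. Between stably expanded and pre-malignant libraries it rose 1.43-fold, a log2 difference of 0.51 (95% interval 0.33 to 0.69; limma, adjusted p = 0.0075), where 7.95% of all genes tested had an adjusted p under 0.05. It was below the 2-fold limit that a call required, and in 1 fit over all 9 libraries its adjusted p was 0.0513. The step from pre-malignant to de novo expanded libraries was 0.35 (0.15 to 0.54; adjusted p = 0.360, or 0.0655 without de novo expanded library 3), and that from de novo to stably expanded libraries 0.18 (-0.02 to 0.38; adjusted p = 0.891), so that neither single step passed the test. The 2 comparisons with the pre-malignant group share its libraries.

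*Arap3* (chromosome 18 from 37972628 to 37998969) encodes a GTPase-activating protein for RHOA and ARF6 that is recruited to the membrane by the lipid product of PI3-kinase. It had the widest spread of the 9 genes, with a coefficient of variation of 79.1% over the 9 libraries, above that of 97.4% of genes. Pre-malignant libraries had 48.3, 37.8 and 34.0 CPM and stably expanded libraries 162, 108 and 108 CPM. De novo expanded libraries 1 and 2 lay below all of these, at 5.76 and 13.2 CPM, while library 3 had 146 CPM and lay within the stably expanded range. Stably expanded libraries were 3.12-fold above pre-malignant ones on the log2(normalized count + 1) scale, a log2 difference of 1.64 (standard error 0.18). The group mean of de novo expanded libraries, 54.9 ± 78.7 CPM, therefore describes none of them. Its log2 difference to pre-malignant libraries was -0.81 (standard error 1.04) with all libraries and -2.17 (0.30) without library 3, and that of stably over de novo expanded libraries was 2.47 (1.05) and 3.83 (0.32). The summed mature neutrophil markers, mostly *Ngp*, moved with *Arap3* in part. They were highest in stably expanded library 1 (3786 CPM), which also had the most *Arap3*. Among de novo expanded libraries they were highest in library 3 (502 CPM, against 118 and 152 CPM). Of the 5 endothelial markers, *Cdh5*, *Tie1* and *Emcn* had at most 6 reads and *Kdr* at most 14 reads in any library. Nearly all of their sum was *Pecam1*, with 231 to 247 CPM in pre-malignant, 99.9 to 243.5 CPM in de novo expanded and 89.3 to 146 CPM in stably expanded libraries, and its lowest values were in libraries with much *Arap3*. Among macrophage markers, *Vcam1* was split like *Arap3* in de novo expanded libraries 1 to 3 (1.17, 6.75 and 167 CPM). *Csf1r* went the other way there (53.7, 83.8 and 12.5 CPM). The part of these shifts in the *Arap3* values was not tested.

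Set beside each other per kb of merged exons, the 9 genes spanned a wide range of levels. In pre-malignant libraries the order was *Was* (60.5 ± 2.73 CPM per kb), *Cdc42* (52.1 ± 1.602), *Fnbp1* (27.8 ± 1.55), *Pacsin2* (22.4 ± 3.76), *Fnbp1l* (12.6 ± 2.80), *Fchsd2* (6.93 ± 0.86), *Wasl* (5.20 ± 0.70), *Arap3* (5.02 ± 0.93) and *Trip10* (3.99 ± 0.52). The libraries of *Fnbp1* and *Pacsin2* overlapped, as did those of *Wasl*, *Arap3* and *Trip10* with their neighbours, whereas all other neighbours were apart. In de novo expanded libraries *Cdc42* (65.5 ± 2.10 CPM per kb) and *Was* (63.0 ± 7.40) overlapped at the top, and *Fnbp1l* (4.66 ± 0.59) had come down to the lowest 5 genes, each of which overlapped with its neighbour in the order. In stably expanded libraries *Cdc42* (74.1 ± 0.93) and *Was* (71.0 ± 3.20) overlapped again, *Arap3* (15.8 ± 3.91) stood above *Fnbp1l* (12.2 ± 0.94), and *Trip10* (4.29 ± 1.38) was last. Merged exon length counts all annotated isoforms, so these levels are low estimates for genes with long alternative exons.

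All 9 genes passed the filter on low values, a mean normalized count of at least 10, in all 3 comparisons. Calls required a change of at least 2-fold with an adjusted p under 0.05. Between de novo expanded and pre-malignant libraries 0 of the 9 genes were called by limma, where 0% of 14195 genes tested were. At an unadjusted p under 0.05 there were 2 of 9 (*Fnbp1l* lower, *Cdc42* higher), against 11.3% of all genes (5.99% higher and 5.26% lower), and these 2 genes had groups that did not overlap, against 19.1% (10.6% higher and 8.5% lower). DESeq2 on the recovered reads called 1 of the 9 (*Fnbp1l*), against 0.102% of 41164 genes with a read, and edgeR called 0, against 0%. Between stably expanded and pre-malignant libraries 1 of 9 was called (*Arap3*, higher), against 2.75% of 13968 genes (1.2% higher). DESeq2 and edgeR called 1 each, against 0.966% and 2.7%, and 3 of 9 had groups that did not overlap (*Was*, *Cdc42* and *Arap3*), against 30.7%. Between stably and de novo expanded libraries 0 of 9 were called, against 0.00727% of 13758 genes, and 2 of 9 had groups that did not overlap (*Fnbp1l* and *Cdc42*, both higher), against 9.61% (4.66% higher and 4.95% lower). At an unadjusted p under 0.05 there were 2 of 9 here (*Fnbp1l* and *Arap3*, both higher), against 4.83% (2.72% higher and 2.11% lower), and DESeq2 called 1, against 0.0774%, and edgeR 0, against 0.00727%. Without de novo expanded library 3, *Fnbp1l* and *Arap3* were called in both comparisons that use the de novo expanded group, where 1.5% of genes were called against pre-malignant and 3.69% against stably expanded libraries. At an unadjusted p under 0.05 there were then 4 of 9 in the first, against 21.8% of all genes, and 3 of 9 in the second, against 20.4%. Since these genes were chosen by their values, nothing is read from these counts.

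**Figure D3:**
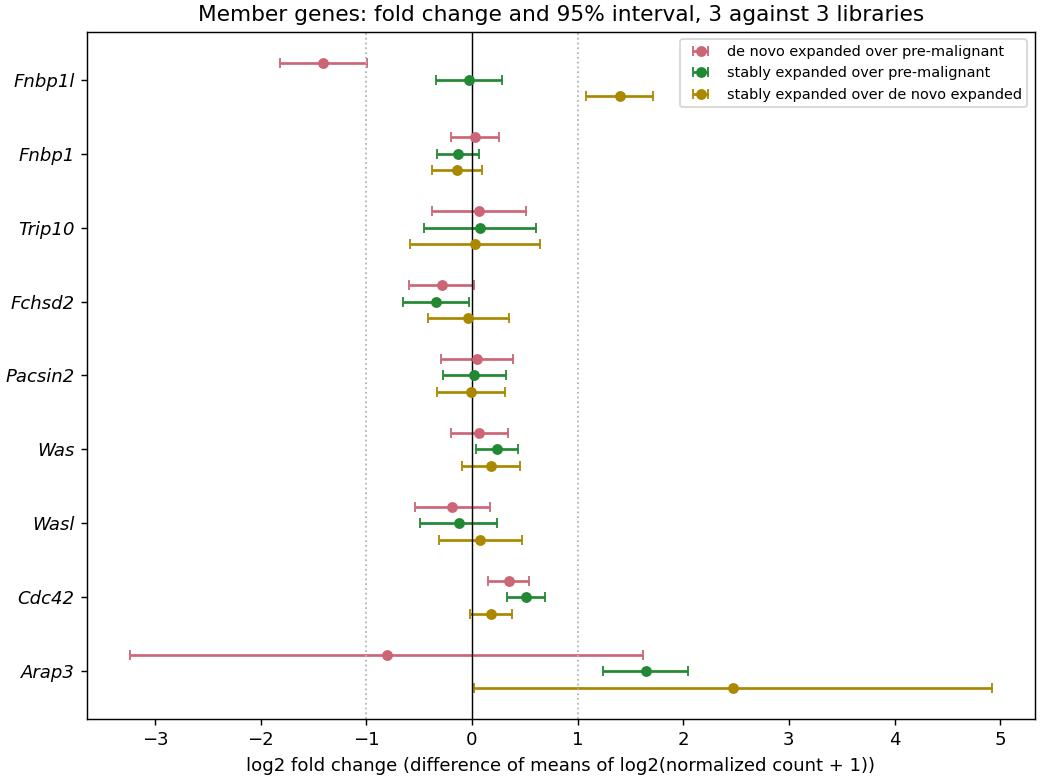
Log2 fold change (x axis, difference of means of log2(normalized count + 1)) of the 9 genes with 95% intervals, for 3 against 3 libraries in each comparison, with dotted lines at a 2-fold change. *Fnbp1l* lies past the 2-fold line in both comparisons with the de novo expanded group and at 0 in the third, the intervals of *Arap3* are wide wherever that group enters, and the points of the other 7 genes lie between -0.34 and 0.51.

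The wider pathway was described with 102 further genes of known role. They were listed from general knowledge, but with earlier results of these data known. Of these, 82, 83 and 81 were tested in the 3 comparisons, taken in the order de novo expanded over pre-malignant, stably expanded over pre-malignant, stably over de novo expanded. By limma, 0, 1 and 0 were called, against 0%, 2.75% and 0.00727% of all genes. At an unadjusted p under 0.05, 5, 20 and 6 were higher, against 5.99%, 13.2% and 2.72% of all genes, and 5, 10 and 3 were lower, against 5.26%, 12.3% and 2.11%. DESeq2 called 0, 3 (*Rhou*, *Rhoj* and *Itsn1*) and 0, against 0.102%, 0.966% and 0.0774%. The median log2 differences were -0.02, 0.06 and 0.10, against 0.01, 0.00 and 0.00 over all genes tested. Without de novo expanded library 3, the counts of calls that involve the de novo expanded group were 0 against pre-malignant libraries, where 1.5% of all genes were called, and 4 against stably expanded libraries (*Cyfip2*, *Fer*, *Pak1* and *Rhou*, all higher in stably expanded), where 3.69% were. *Fer* and *Pak1* fall outside the naming rule and are named after their values were seen. The adjusted p-values given below for stably expanded over pre-malignant libraries are from the 6 libraries of that comparison. In 1 fit of all 9 libraries far fewer genes were called there, as given in the last section.

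Among other F-BAR genes, *Gas7*, a growth-arrest gene with an F-BAR domain, had the largest log2 difference in both comparisons with pre-malignant libraries, and 0.04 between stably and de novo expanded libraries. It had 42.0, 45.5 and 55.8 CPM in pre-malignant, 73.0, 92.3 and 84.1 CPM in de novo expanded and 76.7, 86.4 and 91.2 CPM in stably expanded libraries. Both leukemic groups lay above all pre-malignant libraries. *Gas7* rose in stably expanded over pre-malignant libraries by 0.84 on the log2 scale (standard error 0.13; limma, adjusted p = 0.00636), while the similar difference of 0.82 (0.15) in de novo expanded libraries had an adjusted p of 0.320, or 0.0203 without de novo expanded library 3 (log2 difference 0.80). *Srgap3*, coding for a GTPase-activating protein with an inverse F-BAR domain, was higher by 0.67 (0.22; adjusted p = 0.399) in the de novo expanded than the pre-malignant group, with 44.1 to 54.5 against 21.9 to 36.95 CPM. *Fcho2*, an early clathrin pit protein, fell by 0.40 in stably expanded against pre-malignant libraries (adjusted p = 0.0467). It was picked out after its values were seen, as were the further genes with an adjusted p under 0.05 below, apart from *Cyfip2* and *Rhou*.

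Downstream of WASP and WAVE, the Arp2/3 complex is the actin nucleator itself. Of its 10 genes 9 were tested, and 4 rose in stably expanded over pre-malignant libraries: *Arpc4* by 0.61, *Arpc3* by 0.53, *Actr3* by 0.47 and *Arpc2* by 0.37 on the log2 scale (limma, adjusted p = 0.0103, 0.0119, 0.0248 and 0.0357), where 7.95% of all genes had an adjusted p under 0.05. The median of the 9 was 0.35, against 0.00 over all genes, and 8 of 9 were higher. From the pre-malignant to the de novo expanded group all 9 had a log2 difference above 0 (8 of 9 without de novo expanded library 3), at a median of 0.19, but none had an adjusted p under 0.05 and 2 had an unadjusted p under 0.05. In stably over de novo expanded libraries 8 of 9 were higher (median 0.16). The subunits belong to 1 complex and are not independent of each other. The comparisons also share libraries. The summed mature neutrophil markers, mostly *Ngp*, moved in the same direction, at 487 to 3786 CPM in stably expanded against 157 to 193 CPM in pre-malignant libraries. Their part was not tested.

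Of the 8 WAVE complex genes tested, *Cyfip2* stood out with 232 to 283 CPM in pre-malignant and 436 to 598 CPM in stably expanded libraries. It rose by 0.94 on the log2 scale (standard error 0.13; limma, adjusted p = 0.00505). De novo expanded libraries 1 and 2 had 193 and 251 CPM and library 3 had 491 CPM, the same split as for *Arap3*. Between stably and de novo expanded libraries the log2 difference of *Cyfip2* was 0.76 (limma, adjusted p = 0.891), and without library 3 it was 1.16 with no overlap (adjusted p = 0.0059). Among the 9 genes of WASP relatives and their partners, *Washc4*, a subunit of the endosomal WASH complex, fell by 0.63 in stably expanded against pre-malignant libraries (adjusted p = 0.0075), and the other 8 ranged from -0.14 to 0.11.

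Among the other CDC42 and RAC GTPases, all 6 of which were tested, *Rhou* was the only gene of the wider list called between stably expanded and pre-malignant libraries (limma; log2 difference 1.61, standard error 0.35, adjusted p = 0.0223). This CDC42-like GTPase had 7.21, 5.68 and 4.80 CPM in pre-malignant and 31.3, 17.2 and 10.5 CPM in stably expanded libraries, and again de novo expanded libraries 1 and 2 (3.92 and 2.44 CPM) differed from library 3 (17.2 CPM). Its log2 difference between stably and de novo expanded libraries was 1.69 (adjusted p = 0.891), and 2.51 without library 3 (adjusted p = 0.0108). Without that library its de novo expanded values also lay below all pre-malignant ones (log2 difference -0.89, adjusted p = 0.168). The call was lost without stably expanded library 1 or without pre-malignant library 3. *Rac2*, the RAC gene of blood cells, rose by 0.61 (adjusted p = 0.0158). *Rhoj* was 1.53 higher in stably than in de novo expanded libraries (standard error 0.43; 8.96 to 27.3 against 3.79 to 7.68 CPM), with an adjusted p of 0.891.

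Exchange factors load CDC42 with GTP. Of 14 exchange factor genes tested, 13 had a log2 difference below 0 between the de novo expanded and the pre-malignant group, or 12 without de novo expanded library 3 (median with all libraries -0.18, against 0.01 over all genes), though only *Dock10* had an unadjusted p under 0.05, against 5.26% of all genes that were lower at that level. From pre-malignant to stably expanded libraries *Dock10* and *Fgd2* fell, by 0.55 and 0.71 (limma, adjusted p = 0.0085 and 0.0218), and *Arhgef6* rose by 0.40 (adjusted p = 0.0299). *Itsn1*, the gene of an endocytic scaffold that activates CDC42, had 4 to 57 reads in stably expanded libraries (0.385 to 3.90 CPM) against 70 to 106 reads in the others (4.73 to 7.36 CPM), a log2 difference of -2.23 to pre-malignant libraries that missed the threshold (standard error 0.64; adjusted p = 0.0563). Of the CDC42 effectors, 12 to 13 of which were tested, none had an adjusted p under 0.05. *Cdc42bpb*, the kinase MRCKβ, was 0.62 lower in the de novo expanded than the pre-malignant group (adjusted p = 0.439), with 22.9 to 28.7 against 29.7 to 61.3 CPM, and *Pak4* was 0.45 lower in stably than in de novo expanded libraries (adjusted p = 0.891). Neither the 2 other ARAP genes nor the 9 tested membrane partners in endocytosis had an adjusted p under 0.05 in any comparison.

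**Figure D4:**
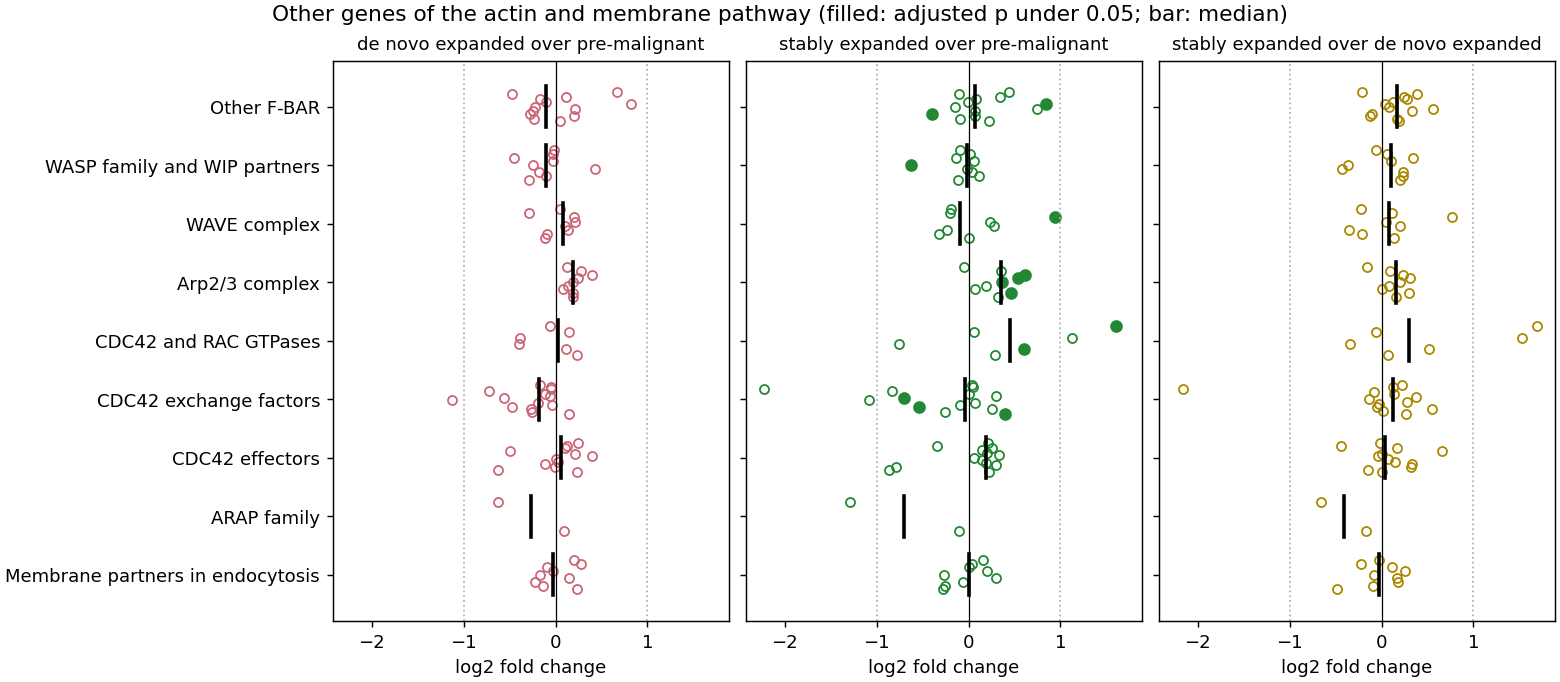
Log2 fold changes (x axes) of the tested genes among the 102 further pathway genes by role (rows) in the 3 comparisons (panels), 1 circle per gene, filled at an adjusted p under 0.05, with the median of each role as a bar and dotted lines at a 2-fold change. The filled circles, 9 higher and 4 lower of 83 tested, all lie in the comparison of stably expanded with pre-malignant libraries. There 7.95% of all genes had an adjusted p under 0.05. The share was 0% in de novo expanded over pre-malignant and 0.00727% in stably over de novo expanded libraries.

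The genes whose level followed *Fnbp1l* most closely over the 9 libraries were ranked by the Pearson correlation of log2(CPM + 1), among 13342 genes. The highest were *Gm37233* (r = 0.936), *Ndrg3* (0.905), *Kif13b* (0.894), *Btbd10* (0.886) and *Washc2* (0.882), and the lowest *Myo1g* (-0.98), *Zc3hav1l* (-0.95), *Tmem186* (-0.929), *Smarcb1* (-0.924) and *Gm37123* (-0.919). The 9 points share the group structure, in which *Fnbp1l* was low in 1 group, and they include 3 libraries each of 1 clone and of 1 mouse, so these values are a description. Of the 5 highest, 1 was also among the 5 highest by Spearman's rho, and 0 remained among them without de novo expanded library 3. *Kif13b*, coding for a kinesin that carries cargo along microtubules, had 118 ± 23.1, 79.98 ± 7.69 and 119 ± 10.9 CPM in the 3 groups (SD, n = 3 each). *Washc2*, a WASH complex gene, had 185 ± 12.1, 161 ± 4.82 and 188 ± 12.4 CPM, and thus moved far less than *Fnbp1l*. *Myo1g*, the gene of a membrane-bound class I myosin of blood cells, ran opposite, with 293 ± 13.3, 342 ± 11.3 and 284 ± 4.79 CPM, and each of its de novo expanded values was above all others, an order shown by 0.992% of the 13402 genes tested in all comparisons.

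**Figure D5:**
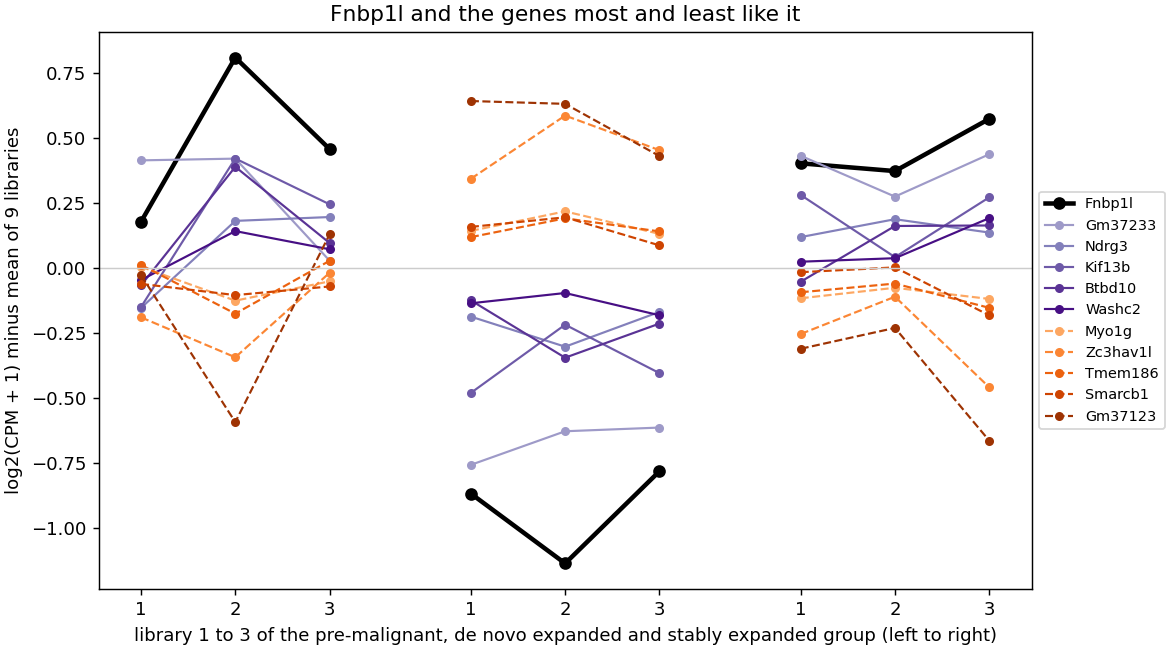
Log2(CPM + 1) minus its mean over the 9 libraries (y axis) for *Fnbp1l* (thick line), the 5 genes with the highest (solid) and the 5 with the lowest (dashed) Pearson correlation with it, by library (x axis, 1 to 3 of each group). *Fnbp1l* and the solid lines dip in the middle group, the dashed lines peak there, and most of them move less than *Fnbp1l*.

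The correlations of the other 8 genes with *Fnbp1l* over the same 9 libraries were lower, from 0.501 for *Arap3* to -0.371 for *Fnbp1*. The *Arap3* value was 0.769 without de novo expanded library 3, in which *Arap3* was high and *Fnbp1l* low. *Fchsd2* followed at 0.403 and *Wasl* at 0.354, and *Cdc42* was at -0.182.

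The surroundings of *Fnbp1l* on chromosome 3 were examined within 500000 bases to either side. The window held 35 other genes, of which 7 were expressed enough to be tested in all 3 comparisons. The predicted gene *Gm42994* (122574524 to 122577072) lies inside *Fnbp1l* on the same strand without a shared exon base, and had 44, 106 and 50 reads in pre-malignant, 16, 15 and 21 in de novo expanded and 54, 20 and 28 in stably expanded libraries. Its log2 difference between de novo expanded and pre-malignant libraries was -1.77 (standard error 0.41, limma adjusted p = 0.356), where its groups did not overlap. Total RNA was sequenced, so reads of *Gm42994* cannot be told apart from those of unspliced *Fnbp1l* RNA, and its values do not stand for a separate gene. The other 6 genes, among them *Bcar3*, 8528 bases away at 6 to 20 reads per library, and *Gclm*, the gene of a glutathione synthesis enzyme, had an adjusted p above 0.05 in all comparisons, as had *Gm42994*. *Mir7657*, whose 57 bases all lie in an *Fnbp1l* exon on the same strand, was at 0 reads. Reads there also match *Fnbp1l*, so this count cannot show whether *Mir7657* was expressed.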

How the data were processed

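The authors converted the reads with bcl2fastq and, per the labels and the methods, processed them with nf-core/rnaseq (Trim Galore 0.6.4, STAR 2.6.1d, featureCounts 1.6.4) on GRCm38.p6 with the GENCODE M25 annotation. They then ran DESeq2 in 3 pairwise comparisons of 6 libraries each. The signal values that the authors deposited are read counts per gene divided by DESeq2 size factors (normalized counts), beside which stand the gene's length and the authors' mean, fold change, standard error, Wald statistic, p-value and adjusted p-value, none of which was used here except the length. Whole reads recovered: within 0.05 reads, at least 99.983% of values in a library were multiples of its value of 1 read, and the 2 tables with that library gave identical reads. CPM scale these reads to a common total on genes. A count of 0 allows up to 3 reads, which covers counting error only.

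The main test was limma 3.58.1 (R 4.3.3) on log2(normalized count + 1), with eBayes and its trend option, two-sided. Genes needed a mean of 10 or more normalized counts in the 6 libraries, with Benjamini-Hochberg adjustment over all genes tested. It was tested on simulated data with 4-fold changes, of which it called 69.7% (131 of 188) for de novo expanded over pre-malignant, 81.2% (156 of 192) for stably expanded over pre-malignant and 71.8% (135 of 188) for stably over de novo expanded libraries, with 4, 8 and 5 false calls among 13860, 13729 and 13491 genes. Each gene was simulated independently, without a departure of a whole library such as that of de novo expanded library 3. The shares called therefore do not give the power of the real comparisons or for changes below 4-fold. Alternatives were pseudocounts of 0.1 and 5, no filter or a mean of at least 50, quantile normalization, edgeR 4.0.16, DESeq2 1.42.0, 1 fit of all 9 libraries, and leaving out each library. With 3 libraries against 3, an exact permutation test of a single gene cannot go below p = 0.1 and was not used. Groups were taken from the labels. A further genetic modification that all groups share is not reported here. P-values measure the spread between these libraries: 3 clones of 1 mouse (pre-malignant), 3 clones in 3 mice (de novo expanded) or 1 clone in 3 mice (stably expanded).

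The members, the pathway and marker lists and the rule for naming genes were chosen with earlier results of these data known. From the pathway list, genes called in any comparison were named, as were the 3 with the largest change per comparison among those with an unadjusted p under 0.05 and no overlap of groups. Promoter sequences are from RefSeq (GRCm38.p6), which held entries for 8 of the 9 genes. Python 3.11.15 (matplotlib 3.10.9, numpy 2.4.6, pandas 2.3.3) was used for the rest.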

Additional observations from a re-analysis of the deposited data

How the results depend on the processing

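The direction of *Fnbp1l* held under every alternative in both comparisons with the de novo expanded group, with log2 differences of -1.55 to -1.25 against pre-malignant and 1.29 to 1.48 against it in stably expanded libraries, over all alternatives including each library left out. The gene was chosen for this difference and its groups do not overlap there, so the held direction is no separate evidence. Of the 9 genes, 0 were called between de novo expanded and pre-malignant libraries, but 1 without a filter on low values, with DESeq2 or with 1 fit of all 9 libraries, and 0 to 2 when 1 library was left out (2 only without de novo expanded library 3). Between stably and de novo expanded libraries the counts were likewise 0, then 1 under each of the same 3 alternatives, and 0 to 2. Between stably expanded and pre-malignant libraries 1 gene (*Arap3*, chosen by these values) was called, 0 with 1 fit of all 9 libraries, and 1 with any library left out. Of the wider list 1 gene was called in that comparison, 2 with a pseudocount of 5, 3 without a filter, 3 with DESeq2, 0 with 1 fit of all 9 libraries, and 0 to 4 with a library left out. Between stably and de novo expanded libraries 0 were called and 0 to 4 with a library left out (4 only without de novo expanded library 3). Over all genes the calls between de novo expanded and pre-malignant libraries went from 0 to 5 without a filter, 42 with DESeq2, 5 with 1 fit of all 9 libraries and 214 without de novo expanded library 3. Between stably expanded and pre-malignant libraries they went from 384 to 6 with 1 fit of all 9 libraries and to 206 to 452 with a library left out. Between stably and de novo expanded libraries they went from 1 to 2 without a filter, 29 with DESeq2, 2 with 1 fit and 0 to 508 with a library left out. The cause of these shifts was not tested.

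Of 378 values of the members' log2 differences under alternatives, 337 kept direction and side of the threshold, 10 passed it in addition, 1 lost it and 30 turned direction. *Arap3* between de novo expanded and pre-malignant libraries turned to 0.46 with edgeR and 0.49 with DESeq2 and ranged from -2.17 to 0.17 with a library left out. With quantile normalization *Fnbp1* turned to -0.006 in that comparison and *Pacsin2* to -0.02 between stably expanded and pre-malignant libraries. With a library left out, the values close to 0 changed sign: against pre-malignant, in de novo expanded libraries *Fnbp1* ranged from -0.022 to 0.089, *Trip10* from -0.042 to 0.168, *Pacsin2* from -0.029 to 0.185 and *Was* from -0.036 to 0.13, and in stably expanded libraries *Fnbp1l* from -0.17 to 0.13, *Trip10* from -0.19 to 0.24, *Pacsin2* from -0.061 to 0.153 and *Wasl* from -0.224 to 0.011. In stably over de novo expanded libraries *Trip10* ranged from -0.23 to 0.20, *Fchsd2* from -0.183 to 0.077, *Pacsin2* from -0.096 to 0.095 and *Wasl* from -0.02 to 0.22. No paired analysis was possible because the columns cannot be tied to single samples, so a fit with clone or mouse as a replicate block was not run.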
